A study of Mus musculus with 24 samples.

Results

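The genes described here encode the matrix of the perineuronal net: the lecticans Acan, Bcan, Ncan and Vcan, the link proteins Hapln1 and Hapln4, the tenascins Tnr and Tnc, and the hyaluronan synthases Has2 and Has3. They were taken by gene symbol from a table of messenger RNA levels in mouse visual cortex, where all 10 symbols were found among 23881 rows. The libraries fell into 3 groups of 4. P28-KO came from mice at postnatal day 28 whose germ line lacks the locus of miR-132 and miR-212, so that all cells of the body are without both, P28-wt from wild-type mice of that age and P10-wt from wild-type mice at postnatal day 10. All animals were C57BL6J mice of both sexes, and the tissue was whole visual cortex rather than sorted cells. P28-wt served both as the older group in the comparison by age and as the control of the mutant, so these comparisons share 4 libraries.

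A perineuronal net is a lattice of extracellular matrix that wraps the cell body and proximal dendrites of some neurons, most densely the parvalbumin interneurons of the cortex. Hyaluronan chains, spun out at the cell surface by hyaluronan synthases, form its backbone. Lecticans are chondroitin sulphate proteoglycans that bind hyaluronan at one end and tenascin-R at the other, and link proteins lock the lectican onto the hyaluronan chain. In the visual cortex these nets assemble during postnatal life, while the critical period for ocular dominance plasticity runs its course, and the juvenile matrix that precedes them is rich in neurocan, versican and tenascin-C.

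The level of a gene is given as RPKM, the reads on its exons scaled to exon length in kilobases and to the mapped reads of the library. Levels of different genes and libraries may thus be set side by side. The scaling does not correct for differences in RNA make-up, and the summed RPKM ran from 256643 in 079R to 293066 in 158R. The steps between low RPKM values put the depth at about 23.7 to 35.3 M mapped reads in the P28-KO libraries, 18.2 to 44.1 M in P28-wt and 31.5 to 91.5 M in P10-wt. The rows of the deleted locus, Mir132 and Mir212, were at 0 in all 4 P28-KO libraries, against 9.74 to 14.4 RPKM for Mir132 and 13.96 to 24.7 RPKM for Mir212 in P28-wt. Markers of cortical neurons were present in every library, with Slc17a7 at 569 to 672 RPKM in P28-KO, 651 to 785 RPKM in P28-wt and 160 to 310.2 RPKM in P10-wt, and Tbr1 at 37.03 to 41.2 RPKM in P28-KO, 38.6 to 40.07 RPKM in P28-wt and 26.7 to 30.1 RPKM in P10-wt. A P10-wt library, 103R, stood apart: its first principal component score was -79.03, beyond the -56.9 to -55.3 of the other 3, and its summed myelin markers were the lowest at 42.1 RPKM, against 83.3 to 137 RPKM in the other P10-wt libraries. In 4 of the 12 libraries both Xist and the Y-linked Ddx3y were above 1 RPKM, and the source of this was not tested.

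The deleted locus makes miRNAs that pair with messenger RNA through their seed, bases 2 to 8 from the 5′ end. Their mature forms, from RefSeq (GRCm38.p6), are shown because their seeds set which of the net genes carry a possible pairing site. The seed is in capitals, and miR-132-3p (chr11:75173723-75173744, plus strand) and miR-212-3p (chr11:75173443-75173464, plus strand) share theirs, whereas that of miR-212-5p (chr11:75173403-75173425, plus strand) differs.
miR-132-3p: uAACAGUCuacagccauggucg
miR-212-3p: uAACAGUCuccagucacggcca
miR-212-5p: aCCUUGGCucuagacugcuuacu

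This common seed is complementary to the letters GACTGTT on the sense strand of a transcript. This motif was present in the longest annotated 3' UTR of Bcan, Hapln1, Hapln4 and Has3, which is 4 of the 10 genes, and in 12.3% of the 13102 tested genes with an annotated 3' UTR. Over all annotated 3' UTRs of a gene Vcan joined them, making 5 of 10, against 12.6% of tested genes. The longest 3' UTR had 473 bases in Bcan, 3683 in Hapln1, 2341 in Hapln4 and 4074 in Has3. Matches were counted without regard to UTR length or conservation, so these shares are no test of enrichment. The study, by contrast, set aside predicted targets whose sites were all poorly conserved. No 3' UTR of the 10 genes held the match to miR-212-5p (GCCAAGG), which 12.2% of tested genes carried. The sites are printed with 11 bases on either side, the match in capitals, on the strand of the gene, and each lies in a 3' UTR exon of the named gene.
Bcan, 3' UTR of a short transcript, chr3:87992555-87992583, minus strand: aagtattttttGACTGTTtcatggaaaac
Hapln1, chr13:89610244-89610272, plus strand: atctccaaagtGACTGTTagctgacatat
Hapln4, chr8:70089722-70089750, plus strand: tgaaacacccaGACTGTTgccatggagtc
Has3, chr8:106882490-106882518, plus strand: tggctgtaactGACTGTTtcaaagagcat
Vcan, first site, chr13:89656948-89656976, minus strand: cctccagtgcaGACTGTTtcctgtacacc
Vcan, second site, chr13:89655619-89655647, minus strand: ggtcctatgttGACTGTTtcccatgaatg

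The first question was how the net genes differ between P28 and P10 in wild-type cortex. Hapln4 was far higher at P28, Bcan was slightly higher, and Tnc, Vcan, Has3, Ncan and Hapln1 were lower, while Acan and Tnr did not pass the test. Of the 10 genes, 9 reached the mean of 0.5 RPKM over the 12 libraries that was asked of a tested gene, and Has2 did not. Among these 9, 2 were higher and 5 were lower at an adjusted p under 0.05 (limma on log2(RPKM + 0.1), Benjamini-Hochberg adjustment over 13927 genes), where 26.7% of all tested genes were higher and 31.2% lower. The change of either direction was thus common across the whole table, and the count for the net genes is to be read against that. The median log2 fold change of the 9 was -0.73, beside -0.05 over all tested genes. Groups did not overlap for 2 higher and 4 lower members, against 24.9% and 29.7% of tested genes. In whole tissue, fewer cells of a type and less RNA per cell cannot be told apart.

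**Figure D1:**
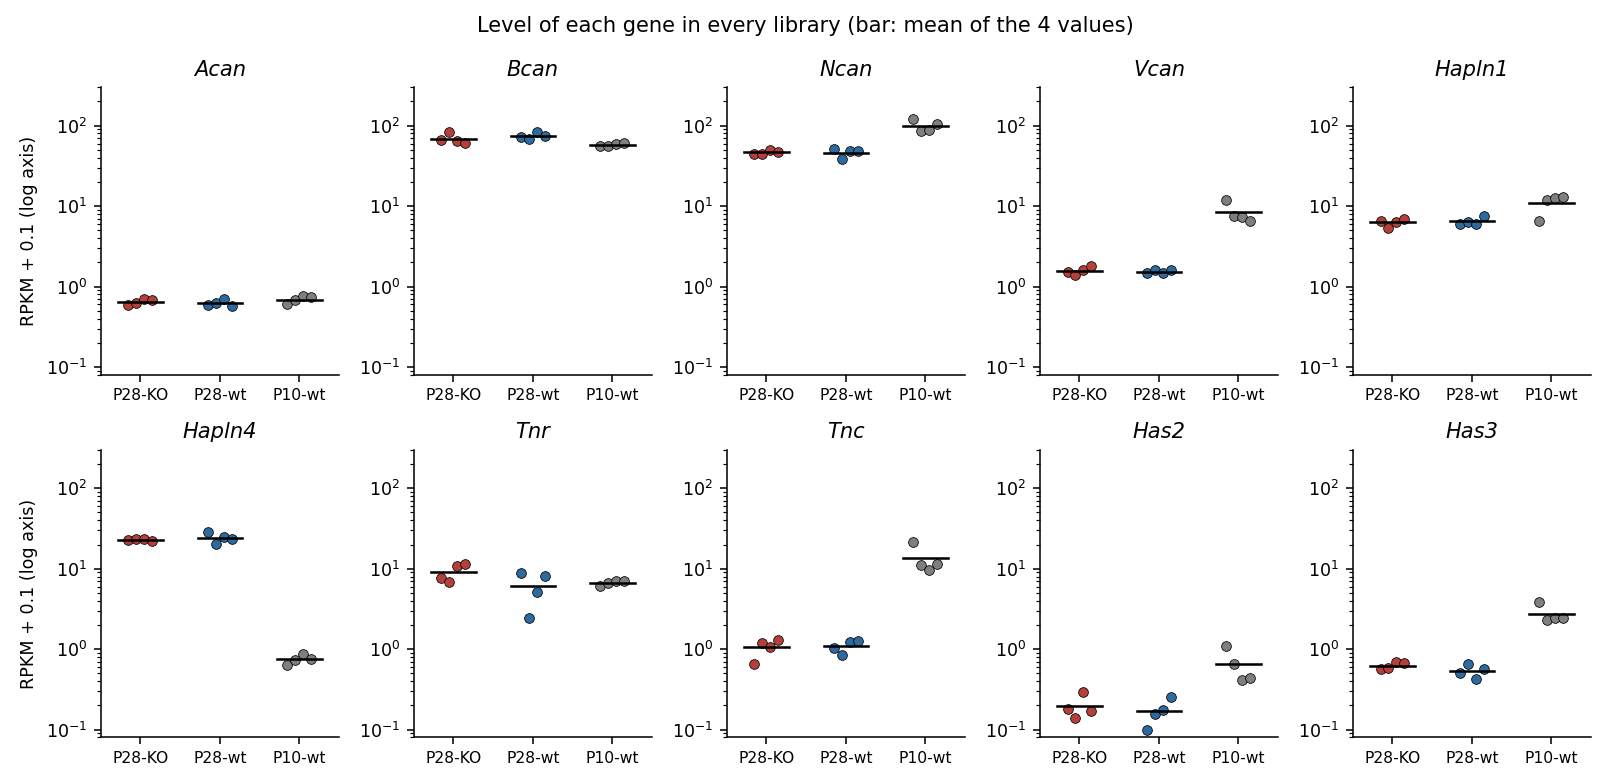
RPKM of the 10 genes in each of the 12 libraries, with 0.1 added and drawn on a log axis that is the same in every panel. Each point is a library, the bar is the mean of the 4 values, and the groups run P28-KO, P28-wt and P10-wt. Hapln4 sits at 20.004 to 28.5 RPKM in P28-wt and at 0.54 to 0.78 RPKM in P10-wt, and Tnc shows the opposite arrangement.

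Among the lecticans, Bcan encodes brevican, a lectican of nervous tissue. Its RPKM was 72.1, 67.7, 82.2 and 73.9 in the P28-wt libraries, against 55.7, 55.1, 58.4 and 61.5 in the P10-wt libraries. Each P28-wt value was above each P10-wt value, though the gap between the groups was narrow. The log2 fold change was 0.36 (SE 0.08, 95% interval 0.18 to 0.54, limma adjusted p = 0.0035). Once each library was freed of its dependence on GC content and length, the log2 fold change was 0.15 (limma adjusted p = 0.0387).

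Ncan encodes neurocan, a lectican of the juvenile brain matrix. It measured 50.7, 38.2, 48.5 and 47.8 RPKM in P28-wt, against 121, 86.9, 87.2 and 105 RPKM in P10-wt. The groups lay well apart, and the P10-wt mean was 2.16 times the P28-wt mean. Ncan fell by 1.10 on the log2 scale (SE 0.13, limma adjusted p = 4.8e-05).

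Vcan encodes versican, the largest lectican, which early in life is made by glial precursors and vascular cells. The 4 P28-wt libraries were tightly grouped at 1.39, 1.49, 1.38 and 1.49 RPKM, against 11.8, 7.54, 7.22 and 6.45 RPKM in P10-wt. No P10-wt library came within several RPKM of the P28-wt libraries, and 103R held the highest value. The fall on the log2 scale was larger for Vcan than for any other lectican, at -2.40 (SE 0.17, limma adjusted p = 2.0e-06), and it was -2.22 without 103R.

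Acan encodes aggrecan, the lectican by which mature perineuronal nets are commonly recognised. It was scarce in this tissue, at 0.50, 0.52, 0.60 and 0.47 RPKM in P28-wt, against 0.50, 0.58, 0.66 and 0.63 RPKM in P10-wt. The groups overlapped, and the log2 fold change of -0.16 had a 95% interval of -0.56 to 0.25 (limma adjusted p = 0.48). These levels correspond to an estimated 70 to 204 reads per P28-wt library and 160 to 353 per P10-wt library, so a change of the size seen for Vcan or Ncan would lie outside the interval.

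The make-up of the lectican family differed accordingly between ages. Bcan contributed 57.8 to 62.7% of the summed lectican RPKM in P28-wt, against 29.5 to 38.1% in P10-wt. Ncan contributed 35.4 to 40.6% in P28-wt, against 56.8 to 64.0% in P10-wt. Vcan made up 1.04 to 1.38% in P28-wt and 3.71 to 6.23% in P10-wt, and Acan 0.38 to 0.48% in P28-wt and 0.27 to 0.43% in P10-wt. Bcan was therefore the most abundant lectican in every P28-wt library and Ncan in every P10-wt library. Within a library the ratio of Bcan to Ncan was 1.42 to 1.77 in P28-wt and 0.46 to 0.67 in P10-wt. The summed level of the family was 122 ± 10.4 RPKM in P28-wt and 167 ± 18.2 RPKM in P10-wt (SD, n = 4 each).

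**Figure D2:**
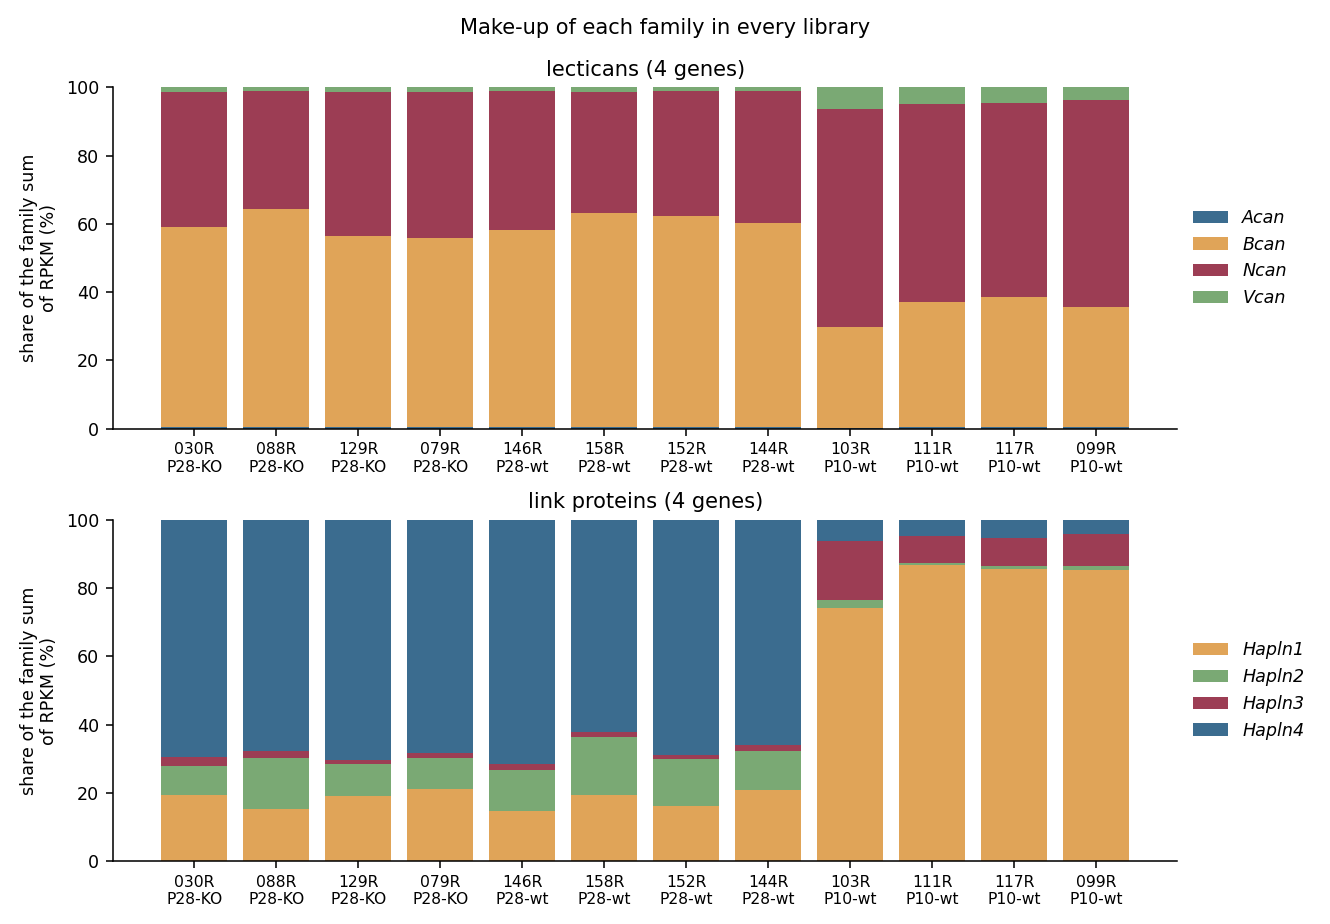
Share of each gene in the summed RPKM of the lecticans (upper panel) and of the link proteins (lower panel), in percent, with 1 stacked bar per library. Acan is under 1% in each library and hardly visible. Hapln4 takes 62.0 to 71.5% of the link protein sum in P28-wt and 4.28 to 6.18% in P10-wt, with Hapln1 at 74.2 to 86.9% in P10-wt.

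The link proteins showed the widest contrast. Hapln4, also called Bral2, is a brain link protein of perineuronal nets that partners brevican, and it had 28.5, 20.004, 24.9 and 23.5 RPKM in P28-wt. In P10-wt it had 0.54, 0.64, 0.78 and 0.65 RPKM. Every P28-wt library was thus more than an order of magnitude above every P10-wt library. Its log2 fold change was 5.02 (SE 0.13, 95% interval 4.72 to 5.32, limma adjusted p = 1.9e-08), and the ratio of the group means was 37.3.

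Hapln1, the cartilage link protein that also stabilises hyaluronan and lecticans around net-bearing neurons, ran the other way. It measured 5.92, 6.21, 5.87 and 7.44 RPKM in P28-wt, against 6.45, 11.97, 12.5 and 12.9 RPKM in P10-wt. The 3 P10-wt libraries other than 103R were well above P28-wt, and 103R lay inside the P28-wt range. Hapln1 fell by 0.73 on the log2 scale (SE 0.20, limma adjusted p = 0.0102), and without 103R by 0.96 (limma adjusted p = 4.0e-05). The call was lost when the trend on GC content and length was removed, with a log2 fold change of -0.38 and a limma adjusted p of 0.128, and also in the fit with no minimum level, with a limma adjusted p of 0.0534.

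The remaining link proteins, which are not in the set of 10, complete the family. Hapln2 (Bral1), which sits at nodes of Ranvier on myelinated axons, had 4.797, 5.49, 4.98 and 4.10 RPKM in P28-wt, against 0.19, 0.07, 0.15 and 0.18 RPKM in P10-wt. It rose by 4.34 on the log2 scale (SE 0.20, limma adjusted p = 1.7e-07). Hapln3, a more widely expressed link protein, fell by 1.05 (SE 0.18, limma adjusted p = 0.0006). The ratio of Hapln4 to Hapln1 within a library was 3.16 to 4.82 in P28-wt and 0.05 to 0.08 in P10-wt, so the leading link protein gene changed between the ages. The summed link protein level was 36.0 ± 3.12 RPKM in P28-wt and 13.0 ± 2.95 RPKM in P10-wt (SD, n = 4 each), whereas the lectican sum was lower at P28.

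The 4 lectican genes each lie next to a link protein gene in the mouse genome (mm10), with no other gene of the table between them. Ncan (chr8:70093085-70120844, minus strand) and Hapln4 (chr8:70083529-70090862, plus strand) are 2222 bases apart, and they moved in opposite directions by age, by -1.10 and 5.02 on the log2 scale. Bcan (chr3:87987531-88000356) and Hapln2 lie 21393 bases apart, with log2 fold changes of 0.36 and 4.34, both higher at P28. Vcan (chr13:89655310-89742512) and Hapln1 (chr13:89540636-89611832) lie 43477 bases apart and were both lower, by -2.40 and -0.73. Acan (chr7:79053483-79115099) and Hapln3 lie 1927 bases apart, with log2 fold changes of -0.16, which did not pass the test, and -1.05. Neighbours therefore did not share a size of change, and in the pair of Ncan and Hapln4 they did not share a direction.

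**Figure D3:**
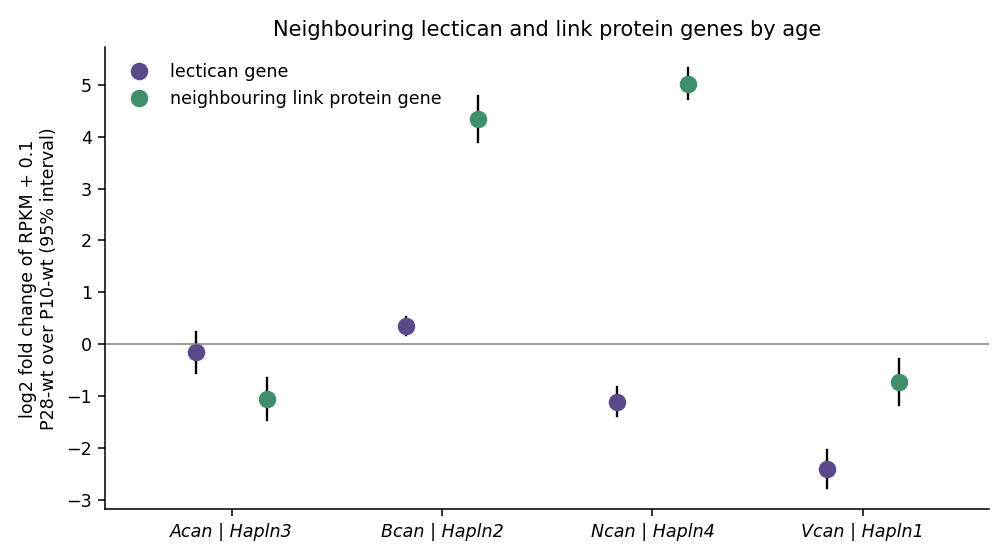
Log2 fold change (P28-wt over P10-wt, on RPKM + 0.1) of each lectican gene and of the link protein gene next to it, with the 95% interval from limma. The pair of Ncan and Hapln4 spans -1.10 to 5.02.

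Of the tenascins, Tnc encodes tenascin-C, a matrix glycoprotein of developing tissue and glial precursors. It had 0.95, 0.75, 1.13 and 1.18 RPKM in P28-wt, against 21.5, 11.1, 9.57 and 11.2 RPKM in P10-wt. The groups were far apart, and the value in 103R was about as far above the other P10-wt libraries as these were above P28-wt. Tnc fell by 3.55 on the log2 scale (SE 0.24, limma adjusted p = 1.6e-06) and had a log2 fold change of -3.30 without 103R. The ratio of the P10-wt mean to the P28-wt mean was 13.3.

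Tnr encodes tenascin-R, which cross-links lecticans in the net. It measured 8.85, 2.34, 5.10 and 7.97 RPKM in P28-wt, against 5.92, 6.50, 6.86 and 6.90 RPKM in P10-wt. The P10-wt values fell inside the wide P28-wt range, whose low end was library 158R. Tnr did not pass the test by age (log2 fold change -0.27, 95% interval -1.02 to 0.48, limma adjusted p = 0.51), and the sign turned without 158R, to 0.12, and with Ddx3y as a covariate, to 0.16. Within a library, the ratio of Tnr to Tnc was 3.14 to 9.34 in P28-wt and 0.28 to 0.72 in P10-wt. Tnr was thus the more abundant tenascin in every P28-wt library and Tnc in every P10-wt library. Tnxb and Tnn, the other tenascin genes, were below the minimum level, with means of 0.45 and 0.13 RPKM in P28-wt and 0.46 and 0.31 RPKM in P10-wt.

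At P28 the hyaluronan synthases were, with Acan, the least abundant of the net genes. Has3, which makes shorter hyaluronan chains than its relatives, had 0.40, 0.56, 0.32 and 0.46 RPKM in P28-wt, against 3.78, 2.19, 2.34 and 2.35 RPKM in P10-wt. No value of one age reached the range of the other. Has3 fell by 2.35 on the log2 scale (SE 0.21, limma adjusted p = 9.6e-06). With a pseudocount of 1 in place of 0.1 the log2 fold change was -1.33 and the call was kept.

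Has2, the synthase of long hyaluronan chains, had 0.00, 0.05, 0.08 and 0.16 RPKM in P28-wt, against 0.98, 0.55, 0.32 and 0.33 RPKM in P10-wt. These values stand for an estimated 0 to 21 reads in P28-wt and 42 to 382 reads in P10-wt, and although the groups did not overlap, the P28-wt end rests on very few reads. The difference of the group means on log2(RPKM + 0.1) was -1.88, with an exact two-sided permutation p of 0.0286, the smallest that 4 against 4 libraries allow, and 0.0571 after adjustment over the 2 comparisons of Has2. In the limma fit with no minimum level, the adjusted p of Has2 was 0.0118. Has1, the third synthase, averaged 0.30 RPKM in P28-wt and 0.27 RPKM in P10-wt and was not tested. Has3 made up 37.4 to 66.9% of the summed synthase RPKM in P28-wt and 72.9 to 80.6% in P10-wt.

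The second question was whether the net genes differ at P28 in mice without miR-132 and miR-212. None of the 9 tested genes passed the test between P28-KO and P28-wt. Of all 13927 tested genes, 0 were higher and 2 were lower in limma, or 0.0% and 0.0144%, and the 2 were Mir132 and Mir212 of the deleted locus itself. Unadjusted p-values under 0.05 were found for 0 of the 9 net genes, against 12.4% of tested genes. The median log2 fold change of the 9 was 0.01, beside -0.03 over all tested genes. The P28-KO and P28-wt ranges overlapped for all 9, where 5.49% of tested genes did not overlap. With reads rebuilt from RPKM and tested by voom no member passed either. A variance-regularized test on RPKM, of the kind the study names, called genes at a posterior probability of change above 0.6, the cut-off of the study. It passed 1 member, Tnr, at 0.718. That test called 648 genes higher and 967 lower in the mutant.

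**Figure D4:**
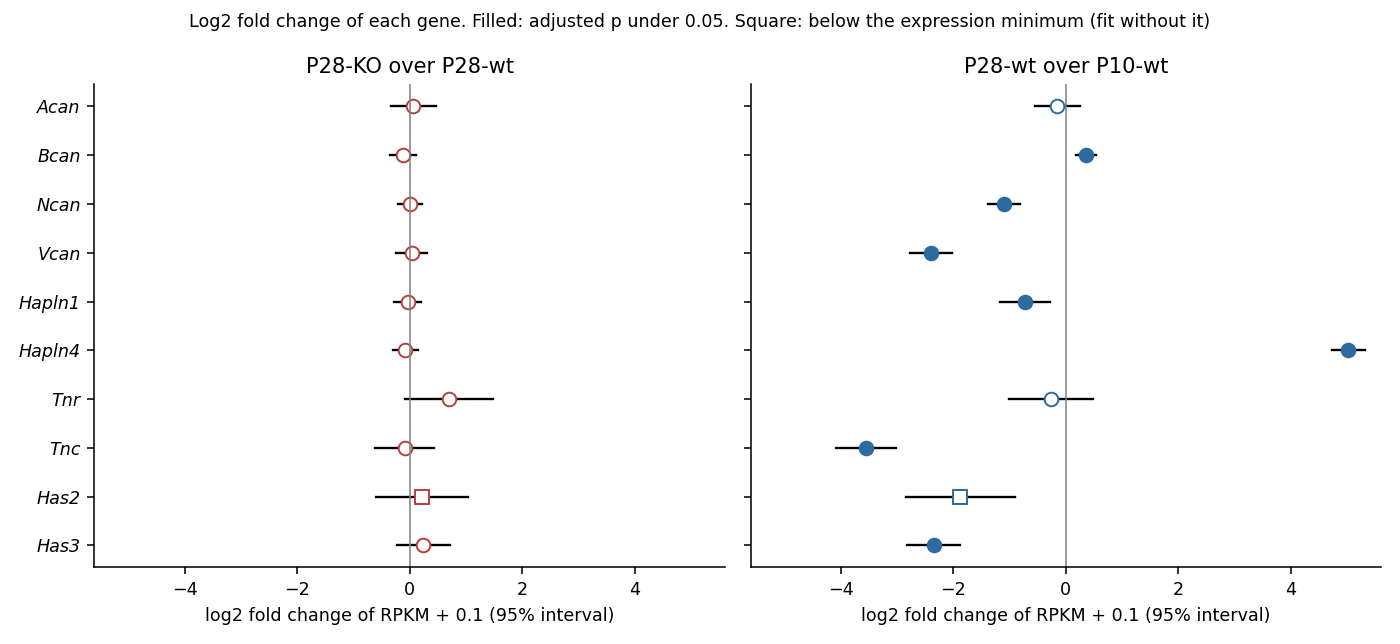
Log2 fold change of each of the 10 genes on RPKM + 0.1 with its 95% interval from limma, for P28-KO over P28-wt on the left and P28-wt over P10-wt on the right. Filled points passed an adjusted p under 0.05, and the square marks Has2, which was below the minimum level and is drawn from the fit without it. All 9 tested genes are open in the mutant comparison, and 7 of 9 are filled by age.

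Among the 9 tested genes, Tnr had the largest log2 fold change in the mutant and the widest 95% interval. Its RPKM was 7.58, 6.80, 10.6 and 11.2 in P28-KO, against 8.85, 2.34, 5.10 and 7.97 in P28-wt. The groups overlapped, with 2 P28-KO libraries above every P28-wt library and 2 P28-wt libraries below every P28-KO library. The log2 fold change was 0.70 (SE 0.35, 95% interval -0.08 to 1.48, limma adjusted p = 0.43). Library 158R carried much of it, since the log2 fold change without it was 0.31 (limma adjusted p = 0.56). The same library had the highest summed myelin markers, 2774 RPKM against 1967 to 2170 RPKM in the other P28-wt libraries, and the part of this in the result was not tested.

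None of the 4 genes with a miR-132-3p match in the longest 3' UTR passed the limma test in the mutant. Hapln4 had 23.0, 23.1, 23.3 and 21.9 RPKM in P28-KO, against 28.5, 20.004, 24.9 and 23.5 in P28-wt, all 4 P28-KO values lying within the P28-wt range. Its log2 fold change was -0.07, with a 95% interval of -0.30 to 0.15. Hapln1 had 6.45, 5.27, 6.33 and 6.77 RPKM in P28-KO, against 5.92, 6.21, 5.87 and 7.44 in P28-wt, with a log2 fold change of -0.04 and a 95% interval of -0.28 to 0.21. For both link proteins a change within these intervals remains compatible with the values. With the dependence on GC content and length removed, Hapln1 was at -0.17 (limma adjusted p = 0.378), and its unadjusted p was then under 0.05. Has3, at 0.46, 0.48, 0.60 and 0.57 RPKM in P28-KO and 0.40, 0.56, 0.32 and 0.46 RPKM in P28-wt, had a log2 fold change of 0.24 (95% interval -0.23 to 0.71). Bcan had 65.3, 82.4, 65.0 and 60.9 RPKM in P28-KO, against 72.1, 67.7, 82.2 and 73.9 RPKM in P28-wt. Its log2 fold change was -0.12 (95% interval -0.35 to 0.11), and the groups overlapped. For Has3 and Bcan too, a change within the interval remains compatible with the values.

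No tested member without such a match in the longest 3' UTR passed in limma either, and Tnr is described above. The split depends on the transcript taken. Vcan, placed here, carries the match in other annotated 3' UTRs, and the Bcan match lies in the 3' UTR of a short transcript. Ncan averaged 46.3 ± 2.37 RPKM in P28-KO and 46.3 ± 5.52 RPKM in P28-wt (SD, n = 4 each), and its log2 fold change was 0.01 with a 95% interval of -0.20 to 0.22. Vcan averaged 1.48 ± 0.15 RPKM in P28-KO and 1.44 ± 0.06 RPKM in P28-wt (SD, n = 4 each), and its log2 fold change was 0.04 (95% interval -0.24 to 0.31). Acan averaged 0.55 ± 0.05 RPKM in P28-KO and 0.52 ± 0.06 RPKM in P28-wt (SD, n = 4 each), and its log2 fold change was 0.06 (95% interval -0.34 to 0.46). Ncan was thus the best bounded of the group and Acan, at under 1 RPKM, the least bounded lectican. Tnc had 0.55, 1.10, 0.97 and 1.199 RPKM in P28-KO, against 0.95, 0.75, 1.13 and 1.18 RPKM in P28-wt, and the log2 fold change was -0.09 (95% interval -0.62 to 0.43). Has2 had 0.08, 0.04, 0.20 and 0.07 RPKM in P28-KO and 0.00, 0.05, 0.08 and 0.16 RPKM in P28-wt, with an exact two-sided permutation p of 0.543.

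The shares of the net genes within their families were next compared between P28-KO and P28-wt. Bcan took 55.3 to 63.8% of the lectican sum in P28-KO and 57.8 to 62.7% in P28-wt. Hapln4 took 67.7 to 70.2% of the link protein sum in P28-KO and 62.0 to 71.5% in P28-wt. The ratio of Hapln4 to Hapln1 was 3.24 to 4.39 in P28-KO and 3.16 to 4.82 in P28-wt, both far from the 0.05 to 0.08 of P10-wt. Tnr took 82.3 to 89.1% of the tenascin sum in P28-KO and 63.6 to 84.7% in P28-wt, with overlapping ranges. Tnn, a minor tenascin outside the set of 10, took 0.35 to 1.04% in P28-KO and 1.12 to 2.81% in P28-wt, without overlap. Its RPKM did overlap, at 0.03 to 0.10 in P28-KO and 0.08 to 0.23 in P28-wt, and the sum was mostly Tnr. Tnxb did not overlap in RPKM, at 0.29 to 0.37 in P28-KO and 0.41 to 0.50 in P28-wt. Both genes were below the minimum level and not tested, and 5.49% of tested genes did not overlap. Hapln2, outside the set of 10, had 2.78, 5.08, 3.15 and 2.94 RPKM in P28-KO, against 4.797, 5.49, 4.98 and 4.10 RPKM in P28-wt. Its log2 fold change was -0.50 (SE 0.18, limma adjusted p = 0.38), so it did not pass, and 3 of the 4 P28-KO libraries were below every P28-wt library. Beside it, the 11 myelin markers summed to 1500 to 1903 RPKM in P28-KO and 1967 to 2774 RPKM in P28-wt, none of the 11 passed, and their part in the level of Hapln2 was not tested.

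Genes that build, modify, cut or bind the net were taken as further lists, and the members' values may be read beside them. The counts by age are to be read against 26.7% higher and 31.2% lower among all tested genes. Among 6 tested genes of hyaluronan breakdown and hyaluronan receptors, 4 were lower at P28 and none higher, with a median log2 fold change of -0.93. Cd44, a cell surface receptor for hyaluronan, averaged 0.63 RPKM in P28-wt and 2.51 RPKM in P10-wt and fell by 1.85 on the log2 scale. Cemip, which is needed to break down hyaluronan, fell by 1.16 and Tmem2, a cell surface hyaluronidase, by 0.71. The hyaluronidases Hyal1 (-0.14) and Hyal2 (-0.38) did not pass. Of 8 other chondroitin sulphate proteoglycans, 5 were lower and none higher, led by Ptprz1, the source of phosphacan, which fell by 2.12 to a mean of 14.3 RPKM in P28-wt, against 61.0 RPKM in P10-wt.

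Genes of the chondroitin sulphate chains were mixed. Of 13 genes of chain synthesis, 4 were higher and 5 lower, with a median of 0.00, where 26.7% of all tested genes were higher and 31.2% lower. B3gat3, which adds the glucuronic acid of the linker to the core protein, rose by 0.69 and Dse, an epimerase that turns chondroitin into dermatan, fell by 1.16. Of 9 sulphotransferases and sulphatases, 1 was lower, the uronyl 2-sulphotransferase Ust (-0.95), and none was higher. Chst11, which sulphates position 4 of the chain, averaged 7.86 RPKM in P28-wt and 9.0 RPKM in P10-wt, and Chst3, which sulphates position 6, 0.86 RPKM in P28-wt and 0.82 RPKM in P10-wt, neither passing the test.

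Of 7 tested genes for lectican-cleaving proteases and their inhibitor, 1 was higher and 3 were lower at P28. Among all tested genes 26.7% were higher and 31.2% lower. The higher one, Adamts4, whose protease cuts aggrecan and brevican, averaged 5.99 RPKM in P28-wt and 1.01 RPKM in P10-wt, and the log2 fold change was 2.44 (SE 0.14, limma adjusted p = 8.2e-07), while Adamts1 fell by 0.57. Of 4 tested ligands held by nets, Nptx2, a pentraxin that gathers AMPA receptors, rose by 2.71 and Nptx1 by 2.19, and Nptxr and Sema3a did not pass. Otx2, a homeoprotein captured by nets, averaged 0.02 RPKM or less in each group. Of 9 proteoglycan receptors, 3 were higher and 5 lower. Rtn4r, the Nogo receptor, rose by 1.25, and Cntn1, a contactin that binds tenascins, fell by 1.001. No gene of these lists passed in the mutant, and at an unadjusted p under 0.05, which 12.4% of tested genes reached, the largest count was 4 of 13 genes, in chain synthesis. The other counts were 2 of 8 for the other proteoglycans, 2 of 9 for the receptors, 1 of 6 for hyaluronan breakdown and receptors, and 0 for the remaining lists.

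**Figure D5:**
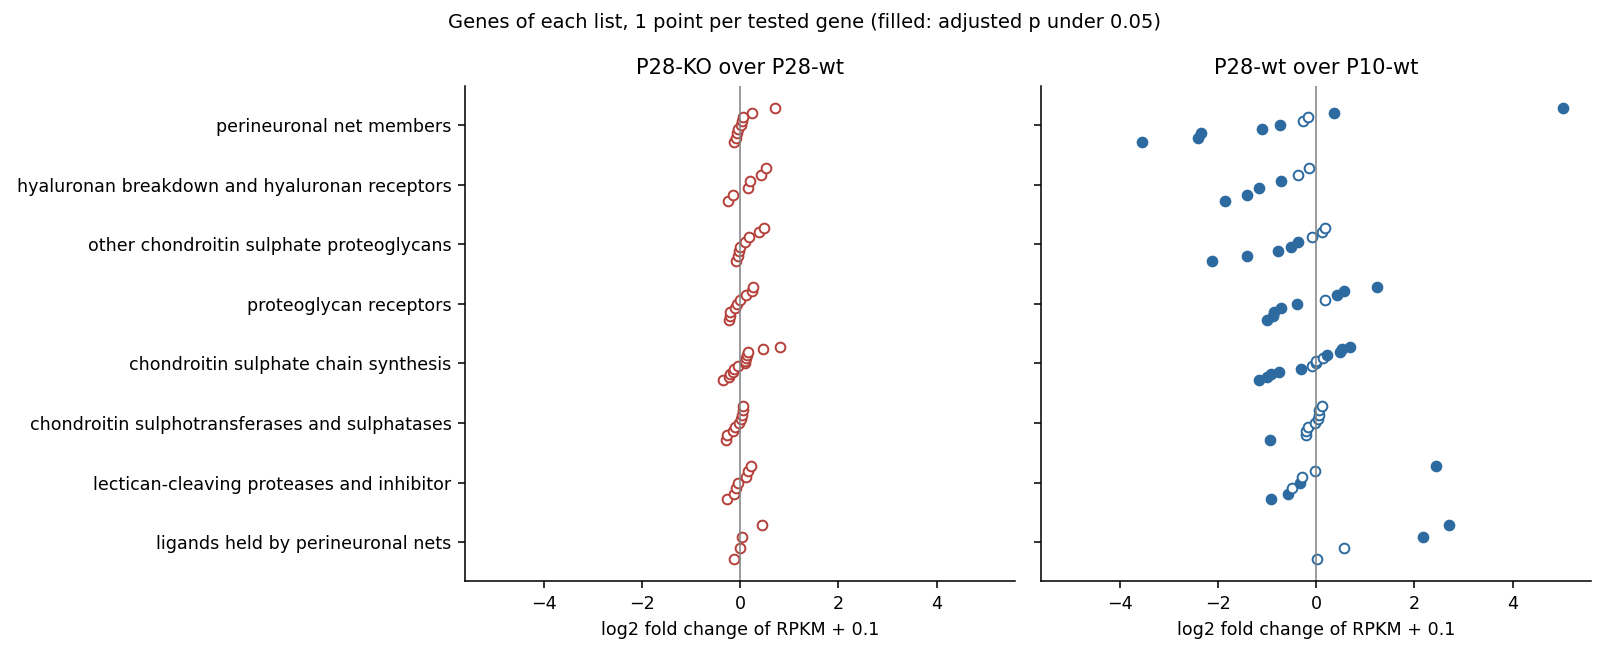
Log2 fold change on RPKM + 0.1 of every tested gene in the set of net genes and in 7 related lists, P28-KO over P28-wt on the left and P28-wt over P10-wt on the right, 1 point per gene, filled where the adjusted p was under 0.05. Hapln4 is the rightmost point by age at 5.02 and Tnc the leftmost at -3.55, while every point in the mutant is open.

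Markers of the cells that make or carry nets moved with age too, where 26.7% of all tested genes were higher and 31.2% lower. Of 11 parvalbumin interneuron markers, 7 were higher and 2 lower at P28, and Pvalb averaged 35.3 RPKM in P28-wt and 0.84 RPKM in P10-wt. All 11 myelin markers were higher, with a median of 5.20, and all 8 microglial markers, with a median of 0.98. Of 10 markers of oligodendrocyte precursors, which are a source of Vcan and Tnr in the brain, 3 were higher and 5 lower, and Pdgfra fell by 1.21. Of 8 markers of pericytes and meninges, 6 were lower and none higher, while 6 of 11 astrocyte markers were higher and 1 was lower. Of 6 endothelial markers, 1 was higher and 3 were lower. Markers of the striatum, thalamus and choroid plexus, which border the cortex or lie near it, were lower for 6 of 8 genes and higher for 1, and summed to 9.05 to 10.2 RPKM in P28-wt and 16.1 to 23.3 RPKM in P10-wt. The part of these cell types and regions in the levels of the net genes was not tested. None of these lists held a gene that passed in the mutant. At an unadjusted p under 0.05, which 12.4% of tested genes reached, they held 7 of 11 myelin markers, whose median log2 fold change was -0.30. They also held 3 of 10 precursor markers, 2 of 11 parvalbumin, 2 of 11 astrocyte and 2 of 6 endothelial markers. The counts were 1 of 8 for pericytes and meninges, 1 of 8 for neighbouring regions and 0 of 8 for microglia.

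By the smallest root mean square difference of centred log2 profiles over the 12 libraries, the genes most like each of 5 members were listed among tested genes with a mean of at least 1 RPKM, with no test. Nearest to Hapln4 were BC030499 (0.19), Igfn1 (0.33) and the myelin gene Ermn (0.35). Nearest to Vcan were Idh1 (0.13), Mtss1 (0.15) and Clmp (0.15), and nearest to Tnc were Tubb2b (0.22), Slc29a4 (0.24) and Prokr2 (0.24). Tubb2b, a tubulin of young neurons, averaged 42.4 RPKM in P28-wt and 614 RPKM in P10-wt, so the Tnc pattern is that of a gene far more abundant than Tnc itself. Nearest to Tnr were Fam135b (0.15), Ptpn4 (0.16) and Pcdh1 (0.17), whose log2 fold changes in the mutant were 0.68, 0.58 and 0.58, with none passing. The profiles included the P28-KO and P28-wt libraries, so mutant values like that of Tnr follow from the selection and add nothing to it. Acan, whose profile was nearly flat, was nearest to Lpin2, Pcca and Maneal (0.09 each).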

How the data were processed

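The authors prepared TruSeq libraries from visual cortex, aligned paired-end reads to mm10 with ELAND, dropped reads mapping to several places and deposited RPKM over RefSeq genes, with no counts. Their labels name CASAVA 1.8.2, SAMtools 0.1.19 and Bowtie 0.12.8. Matching small RNA libraries were not analysed here.

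limma 3.58.1 in R 4.3.3 tested log2(RPKM + 0.1) with a trend on mean level, for each pair of groups alone, over the 13927 genes with a mean of at least 0.5 RPKM. Fold changes are on that scale, which understates low genes. RPKM multiplied by RefSeq exon length lay within 0.1 of a whole read for 51.4 to 55.7% of low values, and this gave the estimated depth. Chance gives 20% for a unit fixed beforehand, but the unit was chosen to fit these same values, with the tallest step taken as a read pair. The share is thus no test of the depth, and read numbers are approximate. Each library was taken as 1 replicate, and the study gives 4 mice for each age and genotype. Tests were tried on simulated data.

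Members and lists were chosen with earlier results of these data known. Named genes were the 10, their family and, per list, up to 4 by age and 2 in the mutant with the smallest p; 1 gene is not reported here. Alternatives were pseudocounts of 0.01 and 1, no minimum or 2 RPKM, median-ratio and quantile scaling, a joint fit of the 12 libraries, a Ddx3y covariate, a replicate block, removal of a GC and length trend, a variance-regularized test and leaving out each library. Python 3.11.15 and matplotlib 3.10.9 drew the figures.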

Additional observations from a re-analysis of the deposited data

Results flagged for a closer look

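In 30 groups of 4 values, 10 genes in 3 groups, 3 held a library far from its companions, all of them 103R of P10-wt, and chance flags about 1 group in 20. Tnc was at 21.5 RPKM in 103R, against 9.57 to 11.2 RPKM in the other P10-wt libraries. Has3 was at 3.78 RPKM in 103R, against 2.19 to 2.35 RPKM in the others. Hapln1 was at 6.45 RPKM in 103R, against 11.97 to 12.9 RPKM in the others. Library 103R was also the deepest, at about 91.5 M reads. Without it the log2 fold changes by age were -3.30 for Tnc, -2.18 for Has3 and -0.96 for Hapln1, all with an adjusted p under 0.05 in limma.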

How the results depend on the processing

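The calls by age of Bcan, Ncan, Vcan, Hapln4, Tnc and Has3 kept their direction and stayed under an adjusted p of 0.05 in every alternative that tested them, as did the absence of a call for Acan. Hapln1 lost its call by age with no minimum level (log2 fold change -0.73) and with the GC and length trend removed (-0.38). Tnr by age turned to 0.16 with Ddx3y as a covariate, and over fits that each left out 1 library it ranged from -0.50 to 0.12. Has3 by age was -1.33 with a pseudocount of 1. In the mutant, values near 0 changed sign and stayed uncalled: with the GC and length trend removed, Bcan was 0.0135, Ncan -0.0301 and Vcan -0.19, and with quantile normalization Vcan was -0.0028. Hapln1 in the mutant was -0.17 with the GC and length trend removed. Leaving out 1 library at a time gave mutant ranges of -0.0807 to 0.0546 for Ncan, -0.0228 to 0.0886 for Vcan, -0.0792 to 0.0407 for Hapln1, -0.16 to 0.0073 for Hapln4 and -0.21 to 0.12 for Tnc. The variance-regularized test called 648 genes higher and 967 lower in the mutant, Tnr (0.57) among the higher, where limma called 0 and 2. The cause of these shifts was not tested.

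Same-numbered libraries did not deviate together in every pair (correlations of -0.05 to 0.11 by age and -0.09 to 0.28 in the mutant), so the numbers were not taken to pair samples. With the number as a replicate block, 3625 genes were higher and 4244 lower by age, where the fit without the block had 3719 and 4344, and the mutant comparison kept 0 higher and 2 lower genes. No call of a net gene changed with the block. The test with voom was added after the data were seen. Estimated reads were fewest for Has2, at 0 to 21 in P28-wt, followed there by Has3, at 44 to 86.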
